A study of Mus musculus with 2 samples.

Results

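Heat shock proteins and J-domain proteins are the core of the protein folding machinery, and their genes were read here in the hindbrain of newborn mice. The set was chosen by symbol: protein-coding genes named Hspa, Hspb, Hspd, Hspe or Hsph with a number, Hsp90aa1, Hsp90ab1 and Hsp90b1, and the J-domain genes named Dnaja, Dnajb or Dnajc with a number. Of 72 such symbols in the GENCODE M21 annotation, 71 had a row in the gene tables by Ensembl identifier, out of 43346 mouse genes with a row, and Hspa14 was not analysed here. The rule used no expression value. The RNA was total RNA over 200 nt, depleted of ribosomal RNA, from mice of strain B6NTac;B6NCrl/Lap at postnatal day 0, with males and females pooled and no treatment, mutation or second condition. It was sequenced as stranded read pairs with ERCC spike-in RNAs. The series holds 2 libraries of this single group: replicate 1 came from 15 pooled mice, the number of mice in replicate 2 is not stated, and both carry the same donor identifier. With 1 group of 2 libraries there is no contrast of conditions, and an exact sign-flip permutation test could not go below p = 0.5, so every value is given as a description with its SD over 2 libraries, which may be technical in part.

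HSP70 proteins bind and release stretches of unfolded protein, driven by ATP. J-domain proteins deliver clients to HSP70 and start its ATP hydrolysis, and nucleotide exchange factors reset the cycle. HSP90 dimers finish the folding of kinases, steroid receptors and other clients, small heat shock proteins hold unfolding proteins in solution without ATP, and the HSP60 and HSP10 chaperonin encloses proteins inside mitochondria. In neurons these systems also serve membrane traffic: J-domain proteins recruit the constitutive HSP70 to synaptic vesicles and to clathrin coats. Heat shock factors induce many of the genes through repeats of a short element, and misfolded protein in the endoplasmic reticulum (ER) induces another subset through the ER stress element.

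Promoters of the members were read from RefSeq on GRCm38.p6, from 250 bases before to 50 bases after each annotated start, and 57 members had at least 1 such window. The heat shock element was searched on both strands as GAANNTTCNNGAA or its reverse complement, where N is any base, and the ER stress element as CCAAT, 9 free bases and CCACG or its reverse complement. The sequences below are those that held a complete element before the start, shown 40 bases to either side where the window allowed and with the element in capitals, because they link members that share a position or a role.

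Hspe1 and Hspd1 (chr1:55088019-55088116, strand of Hspe1): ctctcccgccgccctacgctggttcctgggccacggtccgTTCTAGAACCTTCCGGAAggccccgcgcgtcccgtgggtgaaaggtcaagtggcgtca

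Dnajb6 (chr5:29735812-29735904, plus strand): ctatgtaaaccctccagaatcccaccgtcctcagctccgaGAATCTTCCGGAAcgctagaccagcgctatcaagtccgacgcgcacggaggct

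Hspa5 (chr2:34771985-34772083, plus strand): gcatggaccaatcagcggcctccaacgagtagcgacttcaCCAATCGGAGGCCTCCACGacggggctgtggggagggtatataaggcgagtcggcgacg

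Dnajc3 (chr14:118937787-118937885, plus strand): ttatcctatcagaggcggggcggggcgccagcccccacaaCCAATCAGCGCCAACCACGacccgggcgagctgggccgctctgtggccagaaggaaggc

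Hsp90b1 (chr10:86705493-86705694, minus strand): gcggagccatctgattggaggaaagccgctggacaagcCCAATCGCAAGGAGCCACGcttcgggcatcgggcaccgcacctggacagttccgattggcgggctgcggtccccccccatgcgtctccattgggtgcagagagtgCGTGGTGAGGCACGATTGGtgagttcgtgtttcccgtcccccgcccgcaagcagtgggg

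Hspd1 and Hspe1, which encode mitochondrial HSP60 and its cofactor HSP10, lie head to head on chromosome 1, and in GENCODE M21 the genes overlap by 112 bases. Their RefSeq windows share 285 bases, and the 1 run of 18 capitals, which holds 2 overlapping heat shock elements, therefore belongs to both: it sits 89 to 72 bases before the start of Hspe1 and 144 to 127 bases before that of Hspd1. The element of Dnajb6, a J-domain gene known for holding back polyglutamine aggregates, lies 46 to 34 bases before one annotated start and 127 to 115 bases before another. In Hsph1, an HSP110 gene, the element TTCTGGAAAGTTC came after the start, at bases 16 to 28 or 37 to 49 by the annotated start used. These 4 members are 7.02% of the 57 (exact Clopper-Pearson 95% interval 1.95 to 17.0%, counting error only), beside 0.662% of all 27025 genes with a window. Hspd1 and Hspe1 share 1 sequence but count as 2 of these 4 members.

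The ER stress element occurred in 3 members (5.26%, exact interval 1.10 to 14.6%), beside 0.137% of all genes with a window. They were Hspa5, the ER HSP70 also called BiP, with the element 65 to 47 bases before the start, Dnajc3, an ER luminal cochaperone of BiP, with it 105 to 87 bases before, and Hsp90b1, the ER HSP90 also called GRP94, with 2 copies on opposite strands at 212 to 194 and 107 to 89 bases before. All 3 encode ER chaperones. A looser search for GAANNTTC alone, 2 units in place of 3, found 14 members (24.6%) beside 9.04% of all genes, among them the inducible HSP70 genes Hspa1a and Hspa1b. These matches describe letters in the windows, and no binding was measured.

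**Figure D1:**
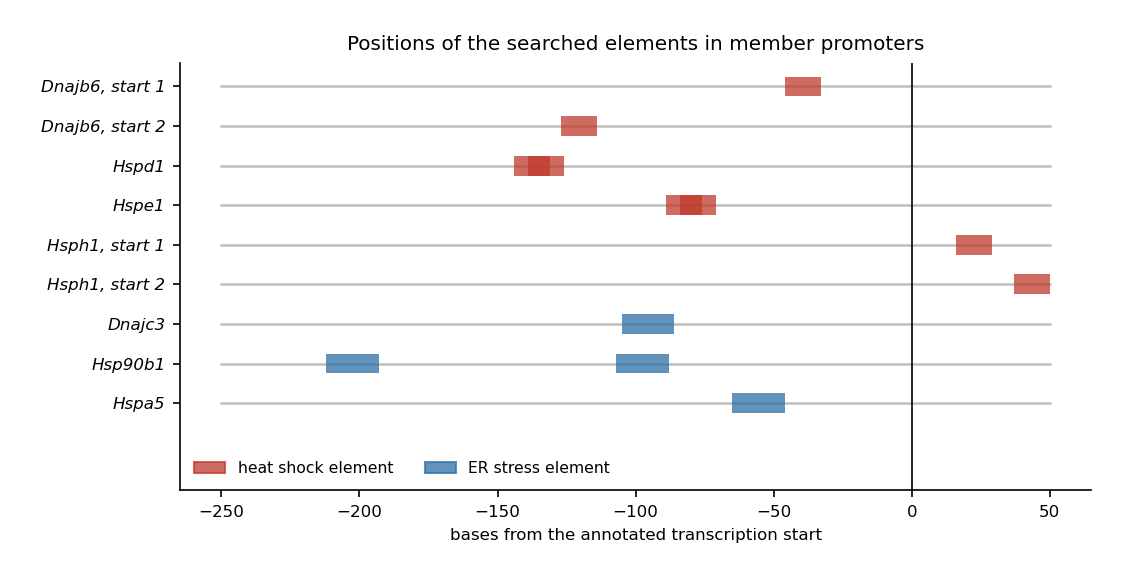
Each grey line is the searched promoter of a member, in bases from the annotated start (x axis, 0 is the start), and blocks mark the heat shock element (red) and the ER stress element (blue); Dnajb6 and Hsph1 are drawn once for each annotated start. All blocks lie before the start except those of Hsph1, and the overlapping pair of blocks of Hspd1 and of Hspe1 is the same stretch of DNA read from both sides.

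Levels are given in TPM, which counts fragments per length and scales every library to the same sum. In these total RNA libraries protein-coding genes held 28.1% of the TPM in replicate 1 and 19.3% in replicate 2, so the typical detected protein-coding gene read 1.44-fold higher in replicate 1 on this scale (median over 11725 genes). Ratios near that size are those of the typical gene. Of the 71 members, 56 reached 1 TPM in both libraries (78.9%), against 54.6% of all 21461 protein-coding genes of the nuclear genome. The median level of the members on the log2(mean TPM + 0.1) scale was 2.38 (2.88 in replicate 1 and 2.06 in replicate 2, SD 0.58), against 1.12 over all protein-coding genes. Summed, the members held 2455 TPM in replicate 1 and 1609.6 TPM in replicate 2, and 0.637% and 0.592% of the expected counts of mouse genes in the same order. Hspa8, Hsp90ab1 and Hsp90aa1 together took 65.6% and 66.3% of the members' TPM. Their share was smaller by other measures: 48.4% and 48.8% of the members' expected counts. On transcripts annotated as coding it was 52.7% and 54.6% of the members' TPM.

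**Figure D2:**
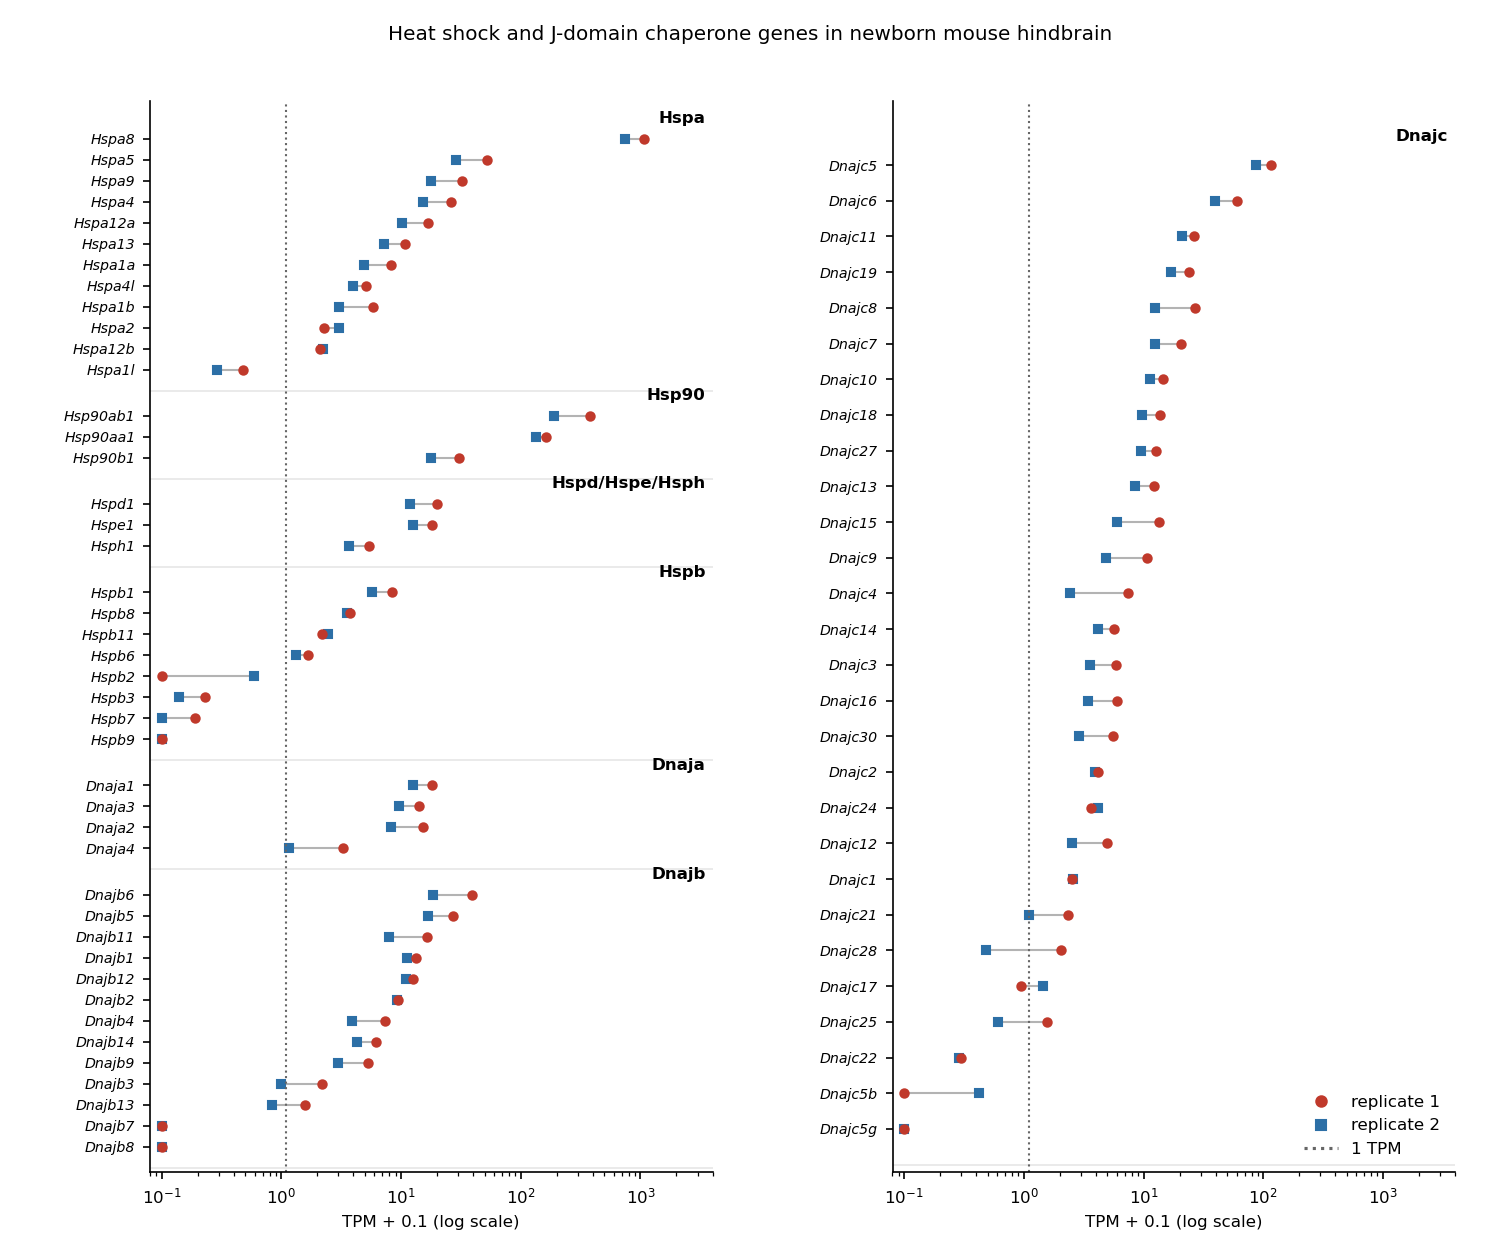
Each row is a member gene, grouped by family and ordered by its mean within the family; circles are replicate 1 and squares replicate 2 on a log axis of TPM + 0.1, and the dotted line marks 1 TPM. Hspa8 stands at 1068 and 744 TPM at the right edge, while 4 genes sit at 0 in both libraries at the left edge.

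The constitutive cytosolic HSP70, Hspa8 (HSC70, ENSMUSG00000015656.12, chr9:40800984-40810087, plus strand), was the highest member and ranked 12 among all protein-coding genes by mean TPM. It read 1068 TPM in replicate 1 and 744 TPM in replicate 2 (906 ± 229, SD, n = 2), from 88230 and 119678 expected counts. The stress-inducible HSP70 genes were far lower in the same RNA. Hspa1a read 8.10 TPM in replicate 1 and 4.78 TPM in replicate 2, and Hspa1b read 5.68 and 2.91 TPM in the same order. Inside each library Hspa8 exceeded the sum of both inducible genes, 77.5-fold in replicate 1 and 96.7-fold in replicate 2. Hspa1a and Hspa1b lie 9951 bases apart on chromosome 17 and are near-identical copies, and their expected counts were not whole numbers, so the split between them is uncertain. Their neighbour Hspa1l, known from the testis, started 546 bases from Hspa1a and read 0.38 and 0.19 TPM. Hspa2, another HSP70 with a known role in sperm, read 2.19 TPM in replicate 1 and 2.91 TPM in replicate 2.

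The HSP110 proteins are distant HSP70 relatives that act as exchange factors. Hspa4 read 25.9 TPM in replicate 1 and 15.2 TPM in replicate 2, against 5.35 and 3.61 TPM for Hsph1 and 5.0 and 3.86 TPM for Hspa4l. Hspa4 was thus the highest of these members in both libraries, 4.84-fold and 4.21-fold over Hsph1. The divergent Hspa12a read 16.6 and 10.1 TPM, and its relative Hspa12b, known from endothelium, 2.01 and 2.14 TPM. Hspa12a exceeded Hspa12b 8.27-fold in replicate 1 and 4.73-fold in replicate 2.

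Cytosolic HSP90 was the next highest system. Hsp90ab1, the constitutive form (ENSMUSG00000023944.10, chr17:45567775-45573271, minus strand), read 381 TPM in replicate 1 and 188 TPM in replicate 2. Hsp90aa1, the form more readily induced by stress (ENSMUSG00000021270.9, chr12:110690605-110702728, minus strand), read 162 and 135 TPM. Their order was the same in both libraries, with Hsp90ab1 2.35-fold higher in replicate 1 and 1.40-fold higher in replicate 2, but the size of the gap rests on how transcripts were assigned, given with the transcripts below. Summed expected counts of the 3 HSP90 genes made up 24.2% and 23.9% of the members' counts.

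All 10 members assigned here to the ER reached 1 TPM in both libraries, though the list may be incomplete. Hspa5 read 51.8 TPM in replicate 1 and 28.4 TPM in replicate 2, and Hsp90b1 read 30.6 and 17.6 TPM. Hspa5 over Hsp90b1 was 1.69-fold in replicate 1 and 1.62-fold in replicate 2, the smallest SD of the 15 gene pairs compared (log2 0.73 ± 0.05, n = 2). Dnajb11, a luminal J-domain partner of BiP, read 16.5 and 7.89 TPM, and Dnajc10, which also carries thioredoxin folds and reduces disulfides, read 14.5 and 11.2 TPM. The other luminal genes were lower: Hspa13 read 10.6 and 7.11 TPM, Dnajc3 read 5.82 and 3.44 TPM, and Dnajb9, which restrains the stress sensor IRE1, read 5.24 and 2.86 TPM. Dnajc1 was the lowest of the 10 at 2.43 and 2.46 TPM.

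The 8 members assigned here to mitochondria also all reached 1 TPM in both libraries, and this list may likewise be incomplete. Hspa9, mitochondrial HSP70 or mortalin, read 32.4 TPM in replicate 1 and 17.6 TPM in replicate 2. Hspd1 read 20.0 and 11.8 TPM and Hspe1 read 17.9 and 12.5 TPM, so Hspe1 over Hspd1 was 0.90-fold in replicate 1 and 1.06-fold in replicate 2. This was the 1 pair of 15 with no common direction, and it is also the pair with the shared promoter shown above. The genes overlap on opposite strands, and because the counting is not stated to use strand, reads in the overlap cannot be told apart. Dnajc19, a subunit of the inner membrane import motor, read 23.9 and 16.8 TPM, and Dnajc11, of the cristae organising complex, read 26.4 and 20.7 TPM. Dnaja3, the J-domain partner of mortalin, read 14.1 and 9.49 TPM.

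The 4 Dnaja genes encode the general cochaperones closest to bacterial DnaJ. Dnaja1 read 18.0 TPM in replicate 1 and 12.5 TPM in replicate 2, and Dnaja2 read 15.0 and 8.09 TPM. Dnaja4 was the lowest of the family at 3.15 and 1.05 TPM. Among the 13 Dnajb genes 9 reached 1 TPM in both libraries (69.2%), beside 54.6% of all protein-coding genes. Dnajb6 read 39.0 and 18.5 TPM, Dnajb5 read 27.0 and 16.8 TPM, and Dnajb1, the main J-domain partner of HSP70 in the heat shock response, read 13.3 and 11.1 TPM. On transcripts annotated as coding Dnajb5 read only 11.3 and 9.90 TPM, under Dnajb1, whose single transcript is coding. Dnajb6 exceeded Dnajb2, a neuronal J-domain gene that guides ubiquitinated clients, 4.20-fold in replicate 1 and 2.02-fold in replicate 2, with Dnajb2 at 9.28 and 9.18 TPM. Dnajb13, an axonemal gene of motile cilia, read 1.48 and 0.74 TPM.

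The Dnajc genes share only the J-domain and have the most varied roles. Dnajc5, which encodes the synaptic vesicle chaperone CSPα, led them at 117 TPM in replicate 1 and 87.6 TPM in replicate 2 (102 ± 20.8, SD, n = 2). Dnajc6, the neuronal auxilin that uncoats clathrin vesicles, followed at 60.5 and 39.3 TPM, 3.06-fold and 2.87-fold above its ubiquitous relative Gak at 19.7 and 13.7 TPM. On transcripts annotated as coding, Dnajc5 read 64.0 and 45.35 TPM and Dnajc6 60.4 and 39.3 TPM, so the lead of Dnajc5 was smaller there. The mitochondrial genes Dnajc11 and Dnajc19 came next on whole genes. The near relatives of Dnajc5 were almost silent: Dnajc5b had 0 counts in replicate 1 and 35 in replicate 2, and Dnajc5g had none in either. Of the 28 Dnajc genes 22 reached 1 TPM in both libraries (78.6%), beside 54.6% of all protein-coding genes. Those that did not included Dnajc22 at 0.20 and 0.19 TPM.

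The small heat shock proteins were the family with the lowest share of detected genes, 4 of 8 (50%), which is near the 54.6% of all protein-coding genes. Hspb1 (HSP27 in human, HSP25 in mouse) read 8.26 TPM in replicate 1 and 5.61 TPM in replicate 2, Hspb8, a partner of BAG3 in selective autophagy, read 3.68 and 3.43 TPM, Hspb11, also known as the ciliary transport gene IFT25, read 2.10 and 2.34 TPM, and Hspb6 read 1.57 and 1.22 TPM. The other 4 stayed under 1 TPM in both libraries. Hspb2 had 0 counts in replicate 1 and 44 in replicate 2, and it overlaps Cryab on the other strand. Hspb7, known from heart and skeletal muscle, had 18 counts in replicate 1 and 0 in replicate 2, and Hspb3, also a muscle gene, had 5 and 3. Hspb9, known from the testis, had none in either library, where a floor of 3 counts would apply. All 5 skeletal muscle markers were higher in replicate 1, with a summed level of 54.1 TPM in replicate 1 and 5.89 TPM in replicate 2, led by Acta1 at 36.0 and 3.98 TPM. The part of muscle RNA in the Hspb values was not tested. In bulk tissue, fewer cells of a type and less RNA per cell cannot be told apart.

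Altogether 15 members fell short of 1 TPM in at least 1 library. The 4 with no counts in either library were Hspb9, Dnajb7, Dnajb8 and Dnajc5g, of which Dnajb7 and Dnajb8 are known from the testis. Another 3 had counts in 1 library and 0 in the other. With the 0 set to a floor of 3 counts, the other count taken as it stood, and after scaling, Hspb2 was 10.3-fold lower and Dnajc5b 8.20-fold lower in replicate 1. On the same terms Hspb7 was 8.54-fold higher in replicate 1. In log2 Hspb2 and Dnajc5b were at -3.37 and -3.04, inside the 5th to 95th percentile of protein-coding genes at 10 to 30 counts (-4.07 to 4.07). Hspb7 averaged only 9 counts. The remaining 8 had counts in both libraries.

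The transcript tables showed which annotated forms carried these levels, and for several leading members much of the TPM came from short forms not annotated as coding. Of the 56 detected members 13 had 1 annotated transcript and 43 had several, and in 36 of those 43 the leading form was the same in both libraries. The median share of the leading form was 84.8% of the gene TPM (mean of both libraries), and it passed 90% in 24 members and stayed under 50% in 9. For Hspa8 the leading form was Hspa8-209, a processed transcript of 727 nt, with 50.6% of the TPM in replicate 1 and 57.4% in replicate 2. The full coding form Hspa8-201, of 2394 nt, read 340 and 216 TPM. By expected counts the order turned round, since coding transcripts held 65.8% of the Hspa8 counts in replicate 1 and 62.7% in replicate 2, against 32.2% and 29.4% of its TPM. A short form gains TPM for each fragment assigned to it, and on coding transcripts alone the log2 ratio of Hspa8 over Hspa1a plus Hspa1b was 4.72 ± 0.13, against 6.42 ± 0.22 on whole genes (SD, n = 2).

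For Hsp90ab1 the assignment to forms differed between the libraries. Hsp90ab1-206, a form of 703 nt annotated for nonsense-mediated decay, took 27.0% of the gene TPM in replicate 1 and 0.12% in replicate 2, from 3279 and 15.0 expected counts. The coding form Hsp90ab1-201 read 271 and 185 TPM. On coding transcripts the log2 ratio of Hsp90ab1 over Hsp90aa1 was 0.76 in replicate 1 and 0.49 in replicate 2, against 1.23 and 0.48 on whole genes. Hsp90aa1 was divided between its coding forms Hsp90aa1-202, of 3281 nt, at 55.4% and 38.9%, and Hsp90aa1-208, of 711 nt, at 40.7% and 52.4%, so its leading form changed between the libraries.

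Dnajc5 was the member with the lowest leading share. Its first form, Dnajc5-204, is annotated for nonsense-mediated decay and took 25.8% of the TPM in replicate 1 and 28.7% in replicate 2, and the longest, Dnajc5-201 of 6578 nt, took 24.6% and 22.5%. Dnajc6 was spread as widely but over coding forms alone, with Dnajc6-204 first at 32.2% and 28.4%. Dnajb2 was led by Dnajb2-210 at 41.0% and 27.4%. In 3 other members with a low leading share the first form was not the same in both libraries. Dnajc7-201 took 38.5% of Dnajc7 in replicate 1 and 35.9% in replicate 2, where Dnajc7-203, a processed transcript, led at 43.3%. Dnajc13-201 took 42.8% of Dnajc13 in replicate 1 and 32.8% in replicate 2, where Dnajc13-204, of 398 nt, led at 43.4% from 62.07 counts. Dnajb5-204 took 29.4% of Dnajb5 in replicate 1 and 52.4% in replicate 2. In replicate 1 Dnajb5-205, a processed transcript of 360 nt, led at 35.8% from 38 counts. By contrast Dnajb6-203, of 1605 nt, gave 90.1% and 87.0% of Dnajb6 and Hspa4-201 gave 96.8% and 96.7% of Hspa4. Dnaja4 showed a reassignment at low depth: Dnaja4-203, of 756 nt, took 54.4% of its TPM in replicate 1 from 62 counts and 0% in replicate 2. The only form of Dnajc15 is annotated for nonsense-mediated decay, and that of Hspa4l with the most TPM has no entry in M21, so neither has a coding value here.

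**Figure D3:**
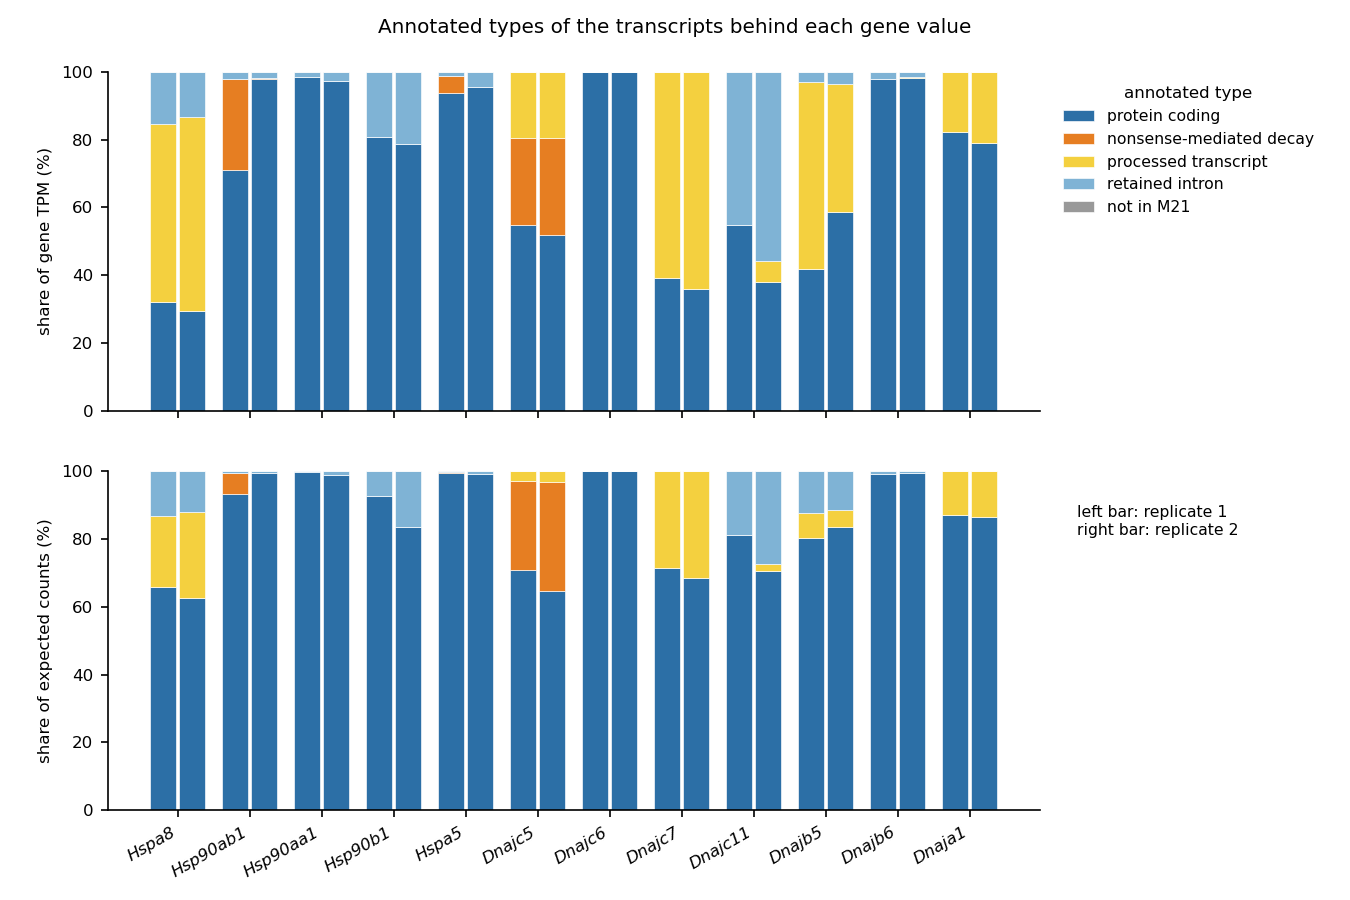
Stacked bars give, for 12 members, the share of each annotated transcript type in the gene TPM (top, %) and in its expected counts (bottom, %), with replicate 1 as the left bar and replicate 2 as the right bar of each gene. The coding share of Hspa8 is 32.2% and 29.4% of TPM but 65.8% and 62.7% of counts, and the orange block of Hsp90ab1 is tall in replicate 1 only.

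Set against each other inside a library, 14 of the 15 gene pairs had the first gene higher in both libraries, and in those 14 the mean log2 ratio exceeded its SD over the 2 libraries. Which gene stands first was set when the pairs were chosen, so this count describes the chosen pairs and tests nothing. The widest gaps after Dnajc5 over Dnajc5b were those of Hspa8 over Hspa1a plus Hspa1b and of Dnaja1 over Dnaja4 (log2 2.96 ± 0.69, SD, n = 2). Hspa9 over Trap1, the mitochondrial HSP90, was 1.30 ± 0.27, and Dnajb1 over Dnajb4 was 1.19 ± 0.46. The nearest neighbours that still kept their order were Dnaja1 over Dnaja2, at 0.44 ± 0.26. On coding transcripts this last pair read -0.02 in replicate 1 and 0.29 in replicate 2, so the order held there in replicate 2 and not in replicate 1.

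**Figure D4:**
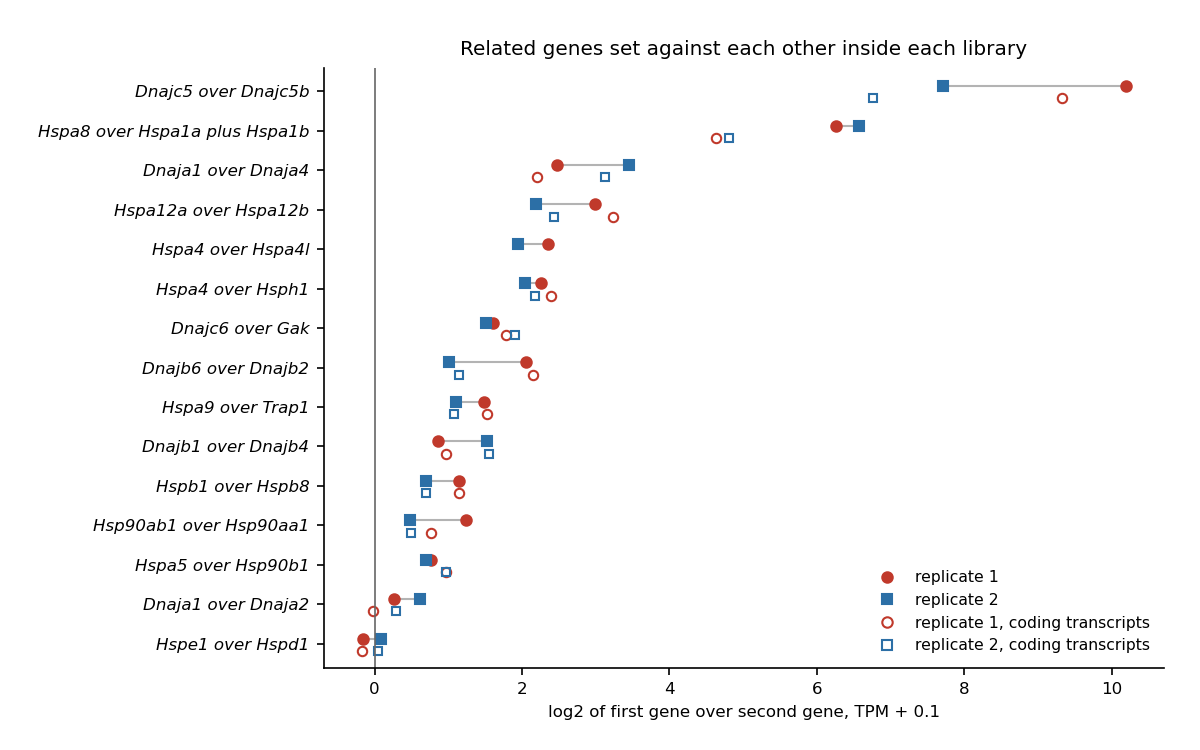
Each row is a pair of genes, and points give the log2 ratio of the first over the second in TPM + 0.1 on the x axis (circles replicate 1, squares replicate 2), filled for whole genes and open for coding transcripts alone. Only Hspe1 over Hspd1 has its filled points on both sides of 0; Hspa4 over Hspa4l has no open points because the main form of Hspa4l has no annotated type.

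To compare the libraries free of the TPM scale, rounded expected counts were scaled by TMM, an edgeR method that equalises the bulk of genes, and expressed as log2 of replicate 1 over replicate 2. The median was 0.09 over the 65 members that averaged 10 counts or more, and stayed 0.09 with the genes at 0 set to the floor of 3 counts, against 0.004 over 15314 protein-coding genes; scaled by spike-in totals, which lowered all ratios by 0.10, the members' median was -0.0096. Past a limit of 0.5 in log2 (1.41-fold), 8 members were higher in replicate 1 (12.3%), beside 9.29% of all protein-coding genes, and 7 were lower (10.8%), beside 13.0%. Among the 56 members that averaged 200 counts or more, 7 were higher (12.5%), beside 4.61%, and 3 were lower (5.36%), beside 6.38%. The members' share was thus near the background on the lower side at both depths, while on the higher side it lay further above the background among the deeply read genes. The highest members kept close to 0: Hspa8 at 0.07, Hsp90ab1 at 0.13, Hsp90aa1 at 0.09, Dnajc5 at 0.03 and Dnajc6 at -0.02. For Hsp90ab1 the same comparison in TPM was 1.02, of which 0.52 was the shift of the typical gene, and its counts were 52509 in replicate 1 and 68134 in replicate 2.

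Among members that averaged 200 counts or more, most of which are J-domain genes, the 6 highest ratios were all of J-domain genes. Dnajc4 had 387 counts in replicate 1 and 265 in replicate 2 (log2 1.05, counting standard error 0.12), Dnajc28 had 254 and 176 (1.03), and Dnajc25 had 442 and 314 (1.00). Dnajc9, a histone cochaperone of dividing cells, had 1150 and 1046 (0.64), Dnajc15 had 368 and 345 (0.60), and Dnajb11 had 2172 and 2094 (0.56). Each of these 6 genes had more counts in replicate 1 even before the deeper sequencing of replicate 2 was scaled out. Scaled by spike-in totals, Dnajc15 (0.499) and Dnajb11 (0.46) fell within the limit of 0.5. The 5th to 95th percentile of protein-coding genes ran from -1.37 to 1.23 at 100 to 300 counts and from -0.78 to 0.68 at 300 to 1000. Dnajc28 and Dnajc15 lay inside the band of their depth, while Dnajc4, Dnajc25, Dnajc9 and Dnajb11 lay above theirs. On the other side Hspa2 had 396 counts in replicate 1 and 1070 in replicate 2 (log2 -0.92, counting standard error 0.08), Dnajc24, which serves diphthamide synthesis, had 224 and 528 (-0.72), and Hspa12b had 472 and 1022 (-0.60). Hspa2 lay under the band of its depth, while Dnajc24 and Hspa12b lay inside it. Dnajc24, Dnajc28, Dnajb11 and Dnajc1 overlap other genes on the opposite strand and Dnajc25, Hspa12b and Dnajc1 overlap genes on their own strand, and their counts are uncertain to that degree. For Hspb8, Dnajc2 and Dnajc1, next in order at -0.42, -0.31 and -0.27, the ratio stayed within the limit.

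Because the spread of all genes narrows with depth, the members were also placed among protein-coding genes in the same range of mean count, a comparison chosen after seeing the data. By that measure 11 of 65 members lay above the 95th percentile (16.9%), beside 5.01% of all protein-coding genes, and 2 lay under the 5th (3.08%), beside 5.01%. The 11 included deeply read folding genes that the fixed limit had passed over: Hspa5 with 11089 counts in replicate 1 and 12088 in replicate 2 (log2 0.38), Hspa9 with 7234 and 7876 (0.39), and Dnaja2 with 3106 and 3400 (0.38). Hspa1b was also among them, at 0.45, while its copy Hspa1a, at 0.25, was not. The split of counts between these near-identical copies is uncertain, and so is this difference between them. The 2 under the 5th percentile were Hspa2 and Hspb2, but Hspb2 had no counts in replicate 1, and at the floor of 3 counts its ratio of -3.37 lay inside the band of its depth, which began at -4.07. All skeletal muscle markers were higher in replicate 1 (log2 1.49 to 2.95), and the erythroid markers Hba-a1 and Hbb-bt were lower in it (-0.65 and -1.09); the part of either in these ratios was not tested.

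**Figure D5:**
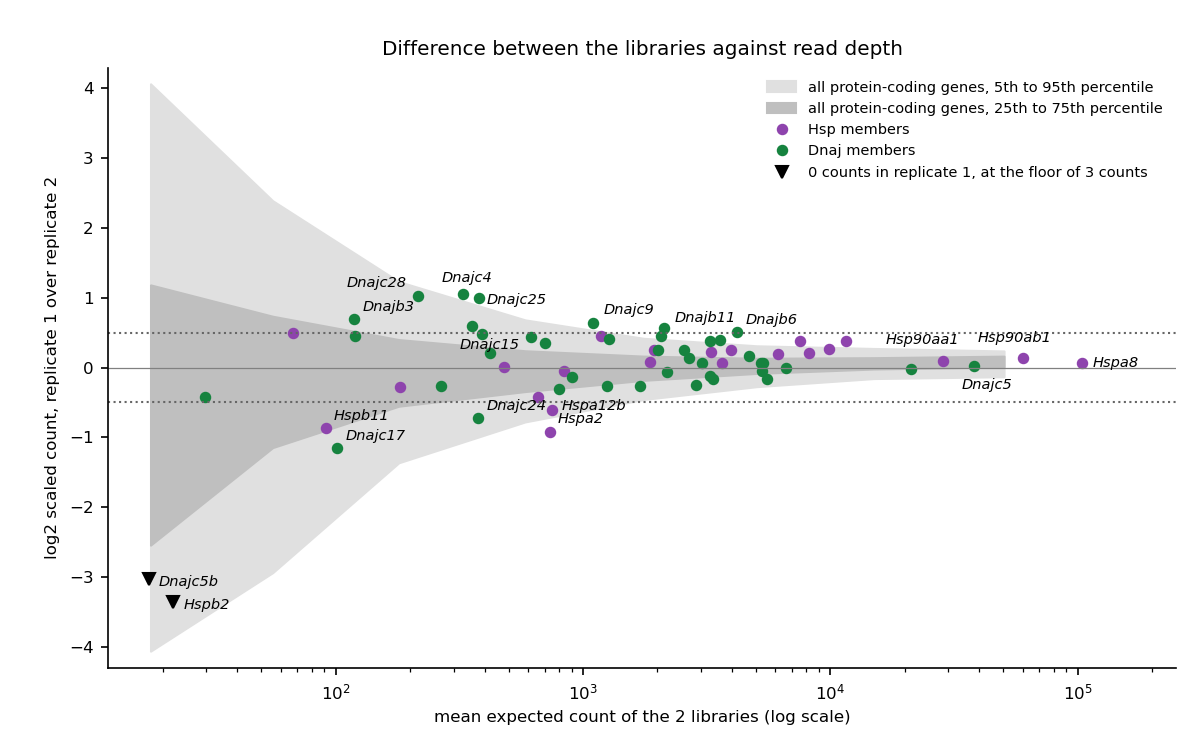
Points are members that averaged 10 expected counts or more (x axis, log scale), and the y axis is log2 of the scaled count in replicate 1 over replicate 2; grey bands show the 5th to 95th and the 25th to 75th percentile of all protein-coding genes, and dotted lines mark 0.5 in either direction. Triangles are the genes with 0 counts in replicate 1, drawn at the floor of 3 counts. The bands close in with depth, Hspa8 ends at 0.07, and Hspa2 lies lowest among members over 200 counts at -0.92.

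The partners of these chaperones were read from 7 lists. The count of detected genes in each list stands beside 54.6% of all protein-coding genes at 1 TPM in both libraries. Of 7 genes for heat shock factors and their binding proteins 3 reached 1 TPM in both libraries (42.9%). Hsbp1, a small negative regulator of heat shock factor, read 75.3 TPM in replicate 1 and 50.1 TPM in replicate 2. Among the factors themselves, Hsf1, the main stress-activated factor, read 5.57 and 6.33 TPM, and Hsf2 read 6.81 and 4.95 TPM. Hsf3, the lowest, had 8 counts in replicate 1 and 0 in replicate 2. All 13 exchange and regulatory factors of HSP70 reached 1 TPM, led by Bag6 at 103 and 61.3 TPM and the chaperone-linked ubiquitin ligase Stub1 at 67.9 and 45.5 TPM, with the stress-induced Bag3 lowest at 1.30 and 1.33 TPM. Of 20 HSP90 cochaperone and partner genes 19 did, led by Fkbp8 at 166 and 102 TPM and Sgta at 58.6 and 45.1 TPM. The exception was Unc45b, a myosin chaperone of striated muscle, at 1.27 TPM in replicate 1 and 0.08 TPM in replicate 2 from 40 and 45 counts.

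The cytosolic chaperonin TRiC, which folds actin and tubulin, had 8 of its 9 genes at 1 TPM in both libraries. Tcp1 read 142 TPM in replicate 1 and 59.5 TPM in replicate 2 and Cct5 read 70.4 and 53.7 TPM, while Cct6b, known from the testis, read 0.01 and 0.06 TPM. All 6 prefoldin genes were detected, from Pfdn5 at 33.3 and 26.9 TPM and Pfdn4 at 26.4 and 13.0 TPM down to Pfdn2 at 3.33 and 2.50 TPM. All 13 other ER folding and ER stress genes were detected too, with the lectin chaperones Calr at 100.2 and 67.2 TPM and Canx at 54.9 and 33.2 TPM at the top and the stress-induced Ddit3 at the bottom with 1.52 and 2.77 TPM. Of 10 immediate early genes, read because tissue handling can induce them, 7 reached 1 TPM, led by Jun at 24.1 and 14.2 TPM and Dusp1 at 14.1 and 9.85 TPM, with Fosb lowest at 0.08 and 0.02 TPM. Between the libraries the log2 ratios of 8 of these 10 genes ran from -0.21 for Fos to 0.25 for Jun, while those of Egr2, from 33 and 198 counts, and Fosb, from 22 and 12, were -2.02 and 1.23. The heat-inducible members Hspa1a, Hspa1b and Dnajb1 were at 0.25, 0.45 and -0.24.

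The tissue label was checked against marker genes. All 10 hindbrain markers reached 1 TPM in both libraries, among them Zic1 at 78.5 TPM in replicate 1 and 65.3 TPM in replicate 2 and Hoxa5 at 27.7 and 20.6 TPM. Of 8 forebrain markers 2 did, Lhx2 and Neurod6, and Dlx5 had no counts. Markers of neurons, astroglia, oligodendroglia and endothelium, 5 each, all reached 1 TPM, as did 4 of 5 microglial and all 5 erythroid markers, and 1 of 5 skeletal muscle markers did, Acta1. Total expected counts were 54313140 in replicate 1 and 77142270 in replicate 2, of which mouse genes held 53617723 and 76299141.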

How the data were processed

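The authors deposited gene and transcript tables for each library, made, per the deposited file notes, from alignments to the transcriptome with build mm10 and GENCODE M4; neither aligner nor quantifier nor the use of strand in counting is given in the sources used here. Expected counts are, per the file headers, estimated fragment counts, TPM divides them by effective length to a fixed sum, and the deposited percent values split a gene's TPM over its transcripts. Symbols, types and coordinates came from GENCODE M21 on the same build by Ensembl identifier. Of the members' 296 transcripts, 18 have no entry there. The members and lists were chosen with earlier results of these data known.

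Expected counts were rounded and scaled over mouse genes by TMM (edgeR 4.0.16 in R 4.3.3) with a prior count of 2, checked on simulated data, with totals, spike-ins and DESeq2 1.42.0 as alternative scalings; Python 3.11.15 with pandas 2.3.3 did the rest. Detection meant 1 TPM in both libraries, and a count of 0 was set against 3 counts. With 1 group, no test was made, and floors and intervals cover counting error only. Named genes were, per family, the 4 highest and 3 lowest by mean TPM, all members of families of 6 or fewer, the 6 widest ratios either way among members averaging 200 counts or more, the pair genes, motif holders and the 6 lowest leading shares, and in the lists the highest 2 and the lowest 1; others were named after their values were seen. A further list, of J-domain genes outside the named families, is not reported here. The 2 replicates were counted as separate libraries, since deeply read genes differed by more than counting error.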

Additional observations from a re-analysis of the deposited data

How the results depend on the processing

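No paired analysis was possible because the series holds 1 group. The median ratio of the members was 0.09 by TMM and -0.0096 by spike-in totals, which moved all genes by 0.10 in log2, and with that scaling 5 members passed the limit as higher in replicate 1 (7.69%, beside 7.60% of protein-coding genes). A limit of 0.3 gave 20 members higher in replicate 1 (30.8%, beside 16.2%), and a limit of 1 gave 2 higher (3.08%, beside 4.05%) and 3 lower (4.62%, beside 6.30%). At a mean count of 200 or more, 7 members were higher (12.5%, beside 4.61%) and 3 lower (5.36%, beside 6.38%), and by percentiles of genes of like depth 2 were lower. Detection at 5 TPM left 32 members, and the median level was 4.44 when TPM was rescaled to protein-coding genes. The values over all protein-coding genes at these settings are not given here, so neither figure can be set against a background. The leading form held a median of 85.5 to 90.3% with either library alone. On coding transcripts, chosen after seeing the data, 12 of the 14 pairs with a coding value had the first gene higher in both libraries, and 52 of 54 detected members with such a value stayed at 1 TPM. The 2-unit search gave 24.6%. No ratio past the limit changed sign. The causes were not tested. Depth limits low members: across protein-coding genes the 5th to 95th percentile of the ratio ran from -2.94 to 2.39 at 30 to 100 counts and from -0.27 to 0.31 at 3000 to 10000.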
